A study of Mus musculus with 19 samples.

Results

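These results describe how the muscle transcriptome of mice fed a high-fat diet differed with age, from aged obese against young obese libraries. The comparison was taken by group label, which selects 10 of the 19 libraries of the series: 5 from aged and 5 from young mice, all on high-fat food in which fat gave 60% of the energy. It covers every gene with a mean of at least 10 over the 19 libraries, 13367 of the 14707 genes in the deposited table. All mice were male and of a strain the labels spell C657Bl/6J. Young mice were 6 months old and aged mice 20 to 21 months old, and no transgene or drug is named for any group. The lean groups, used beside them, were 4 young and 5 aged libraries from mice on food in which fat gave 12% of the energy. The sample labels name the gastrocnemius, the mixed-fibre calf muscle, and single-end reads, while the series' design text names the tibialis anterior, paired-end reads and an aged range of 21 to 24 months. The sample labels were followed. How long the diets were fed is not given in the sources used here, nor is whether every library is a separate animal, and p-values then measure only how far these samples spread, which may be technical.

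Skeletal muscle is a tissue of contracting fibres held in an extracellular matrix that fibroblasts and fibro-adipogenic progenitors make and that passes force to the tendon. Fibrillar collagens carry tension, basement membrane proteins wrap each fibre, and small proteoglycans and crosslinking enzymes set how fibrils assemble. With age, muscle is known to lose nerve contacts and mass. A diet rich in fat is known to shift fuel use toward fatty acids.

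Values are normalized reads per gene, and changes are differences in log2(value + 1), aged minus young, of n = 5 and 5 libraries. Their standard error (SE) came from a limma model of all 19 libraries, with 1 spread per gene shared by the 4 groups. The threshold was a Benjamini-Hochberg adjusted p of 0.05 over all 13367 genes. By that measure 1206 genes (9.02%) changed with age on the high-fat diet, 556 upward (4.16%) and 650 downward (4.86%), and the median change over all genes was -0.000643. Of the changes over 2-fold, 188 were falls and 66 were rises. Estimated depth lay between 15.1 and 17.9 M reads per library. The muscle genes Myh1, Myh2, Myh4, Myh7, Actn3, Ckm, Acta1, Mylpf and Tnnt3 together made 2.25 to 3.03 M normalized reads in every library. Young obese 2 correlated slightly less with its own group than with the others (mean r across genes 0.9727 and 0.9762). Without it 1893 genes changed, while without young obese 4 or 5 or aged obese 2 or 3 the count was 774, 787, 723 and 756.

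Lists of matrix and tendon genes had the largest shares of called members, and nearly all of those members fell. All 10 tested fibrillar collagen genes had lower values in aged obese muscle and 7 passed the test, with a median change of -1.89. With young obese 3 and young lean 3 left out the count was again 7. In bulk tissue fewer cells of a type and less RNA per cell cannot be told apart. Col1a1, the main chain of type I collagen, stood at 10607, 4707, 34080.5, 26155 and 21225 normalized reads in young obese 1 to 5 and at 1035, 1412, 1332, 1290.5 and 2363 in aged obese 1 to 5. The groups did not overlap, young obese 3 was highest and young obese 2 lowest of the young, and the aged libraries lay close together. Col1a1 fell by 3.45 (SE 0.52, adjusted p = 0.000774).

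Col1a2, which encodes the partner chain of type I collagen, held 10843, 4799, 23267, 21507 and 16894 normalized reads in the young obese libraries and 1308, 1727, 1434, 1741 and 2748 in the aged obese ones. It fell by 2.96 (SE 0.40, adjusted p = 0.000314), with the same order of young libraries 3, 4, 5, 1 and 2 and no overlap. Its promoter is shown because type I collagen carries the largest falls in abundant matrix genes. The window runs from 250 bases before to 50 after the start (RefSeq, GRCm38.p6, chr6:4505368-4505667, + strand), and capitals mark CCAAT or its reverse ATTGG, the letters of the CCAAT box.
Col1a2: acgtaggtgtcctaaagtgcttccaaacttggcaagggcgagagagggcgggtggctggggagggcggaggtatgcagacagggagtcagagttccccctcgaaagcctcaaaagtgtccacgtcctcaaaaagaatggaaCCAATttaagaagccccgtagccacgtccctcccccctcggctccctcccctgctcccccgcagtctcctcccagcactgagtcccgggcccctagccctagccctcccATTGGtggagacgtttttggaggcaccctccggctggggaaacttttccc
The window holds 2 matches, and 37.4% of 32851 RefSeq promoter windows of this length hold at least 1. Of 8 fibrillar collagen genes with a window, 3 hold the letters (Col1a2, Col11a1 and Col5a3). A match is a run of letters, not a measured site.

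Col3a1, the fibrillar collagen of compliant tissue, was at 5596, 3036, 31191, 12097 and 7995 in young obese and 1106, 1378, 1301, 1429 and 1850.3 in aged obese libraries. Every young library lay above every aged one, and young obese 3 stood at more than 2-fold the next. The change was -2.65 (SE 0.55, adjusted p = 0.00619). Col11a1, a minor chain that sets fibril width, was at 250.7, 106, 263, 398 and 273 against 15.4, 31.6, 22.6, 13.9 and 41.7 and fell by 3.31 (SE 0.46, adjusted p = 0.000485). Col5a2, which starts fibril assembly, fell by 1.93 (SE 0.38) and Col5a3 by 1.41 (SE 0.22).

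Of 17 network and fibril-associated collagens 8 fell and none rose (median -0.87). The 3 chains of type VI collagen, the beaded network around muscle fibres, fell by near-equal amounts, with Col6a1 at -1.62, Col6a2 at -1.63 and Col6a3 at -1.60 (adjusted p = 0.00109, 0.00207 and 0.00219). Col12a1, which coats fibrils of tendon and fascia, was at 734, 276, 1614, 1008 and 872 in young and 143, 192, 124, 108 and 259.5 in aged obese muscle, without overlap, and fell by 2.31 (SE 0.45). In the basement membrane list 9 of 20 genes fell and 1 rose (the laminin chain Lama5 by 0.30, named after its value was seen), with a median of -0.41. Col4a1, a core chain of the basement membrane sheet, was at 4608, 3052, 5353, 4519 and 4295 and 2033, 2188, 2209.7, 1884 and 2471, a change of -0.999 (SE 0.16, adjusted p = 0.00104). The 2 groups stayed apart and each was narrow. Its partner Col4a2 fell by 0.77, the linker Nid1 by 0.75 and the laminin chain Lamc1 by 0.49. The basement membrane falls numbered 5 without young obese 5.

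**Figure D1:**
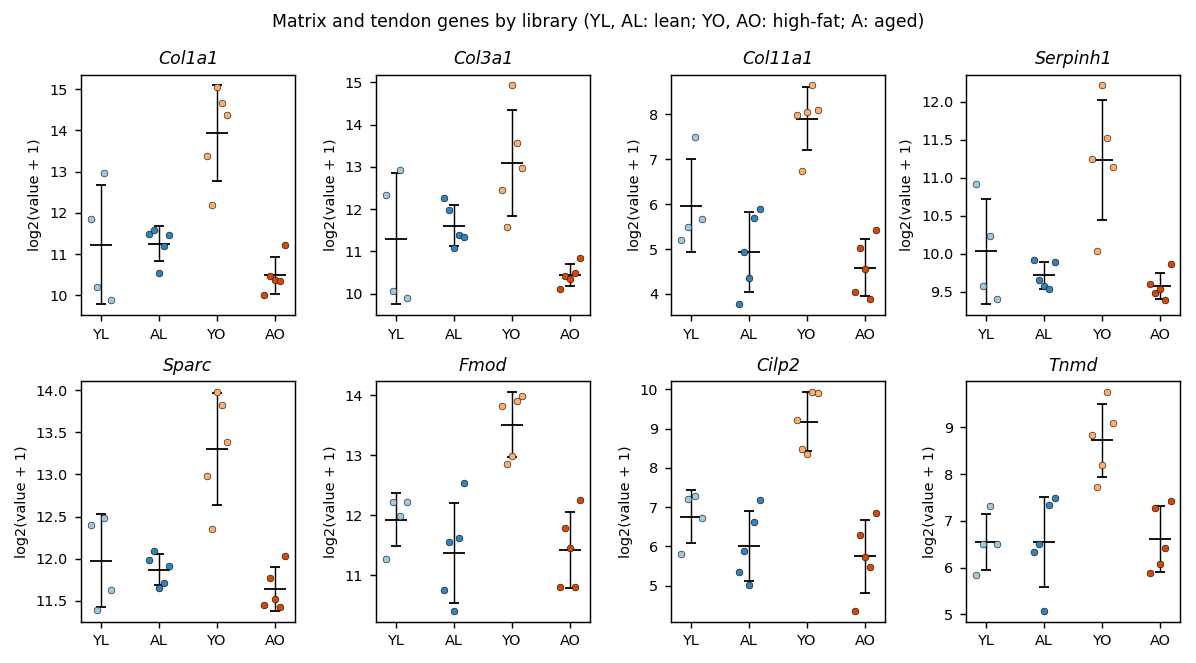
Each point is 1 library's log2(value + 1) of a matrix or tendon gene in the 4 groups (YL young lean, AL aged lean, YO young obese, AO aged obese), with the group mean as a line and its SD as bars. In all 8 genes the young obese libraries lie above the aged obese ones. The aged obese libraries lie in or below the range that the lean libraries of both ages span together, also in all 8 genes.

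Among 30 small proteoglycans and matricellular proteins 19 fell and none rose (median -0.97). Sparc, a collagen-binding protein, was at 8076, 5219.7, 16111, 14561 and 10717 normalized reads in young and 2793, 3498, 2939, 2756 and 4198 in aged obese libraries. The groups were apart, and the change was -1.66 (SE 0.25, adjusted p = 0.000877). Fmod, which organizes tendon fibrils, was at 14470.3, 7439, 8089, 15328 and 16211 against 1782, 3529.8, 2817, 1798 and 4898 and fell by 2.09 (SE 0.36). Dcn, the decorin of fibroblasts and progenitors, changed far less, from 13000.5, 10112, 12239, 14244 and 12945 to 9445, 8481, 8497, 7517 and 9601, a change of -0.52 (SE 0.11, adjusted p = 0.00719). Of 19 elastic fibre and fibronectin genes 8 fell and none rose (median -0.85), with Eln, elastin, at -1.001 and Mfap4 at -1.94. That count ranged from 5, without any 1 of aged obese 1 to 4 or young obese 3 to 5, to 15 without young obese 2.

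The machinery that makes collagen fell with it, in 21 of 31 genes (median -0.94), and all 31 had negative values. Serpinh1, the collagen chaperone HSP47, stood at 2425, 1047, 4747, 2932 and 2259.5 in young obese and 774, 715, 739, 673 and 929 in aged obese libraries. It fell by 1.66 (SE 0.30, adjusted p = 0.00231), and even young obese 2, the lowest of the young, was above all aged libraries. Loxl2, a collagen crosslinking oxidase, was at 622, 473, 1443, 971 and 862 against 214, 282, 199.6, 199 and 346, a change of -1.74 (SE 0.27). Bmp1 and Pcolce, the procollagen protease and its enhancer, fell by 0.94 and 1.14, and the prolyl hydroxylase chain P4ha1 fell by 0.48.

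Among 30 matrix proteases and their inhibitors 10 fell and 1 rose (median -0.49). Mmp2, the gelatinase of fibroblasts, was at 1979, 1186, 2930.0, 3183 and 2144 in young and 809, 823, 919, 863 and 1119 in aged obese libraries and fell by 1.26 (SE 0.22, adjusted p = 0.0023). Timp2, an inhibitor that also helps activate it, was at 5374, 3759, 5980.0, 6793 and 5850.2 against 3575, 3513, 3308, 3487 and 3802. It fell by 0.62 (SE 0.13, adjusted p = 0.00738) although young obese 2 overlapped the aged libraries. The 1 rise was Adamts20 at 0.88. The falls numbered 6 without aged obese 2, aged obese 3 or young obese 4.

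Single libraries weighed on Adam12, a protease of regenerating and fibrotic muscle, at 40.5, 17.5, 756, 123 and 27.4 in young and 9.26, 5.93, 7.22, 9.62 and 14.2 in aged obese libraries. Young obese 3 was far above the rest. Its change of -2.88 (SE 0.78, adjusted p = 0.0263) was not called without young obese 3 or 4 or aged obese 1, 2 or 3. The secreted Wnt modulator Sfrp2 was at 150.4, 42.6, 315, 115 and 81.2 against 10.3, 18.8, 18.96, 7.48 and 38.7 and fell by 2.74 (SE 0.48, adjusted p = 0.00219). The Wnt inhibitors Wif1 and Frzb fell by 2.49 and 1.12, which with the receptor Fzd1 (-0.91) made 4 falls and no rise among 29 Wnt pathway genes (median -0.05).

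Markers of tendon moved with all of these groups. Of 13 tendon markers 9 fell and all 13 had negative values (median -2.09). Their summed level was 14160 to 33820 normalized reads in young obese, 4402 to 10360 in aged obese, 6941 to 10630 in young lean and 4515 to 12990 in aged lean libraries, and no marker was at 0 in all high-fat libraries. Tnmd, the tendon cell membrane protein tenomodulin, was at 453, 212, 291, 862 and 547 in young and 57.6, 153, 66.8, 84.5 and 170.0 in aged obese libraries, without overlap, and fell by 2.11 (SE 0.44, adjusted p = 0.00619).

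Cilp2, of tendon and cartilage matrix, went from 597, 357, 326, 970.2 and 952 to 19.5, 77.1, 52.4, 43.8 and 114 and fell by 3.43 (SE 0.46). Kera, a keratan sulfate proteoglycan, was at 483, 164, 488, 1005 and 887 against 30.9, 60.3, 30.7, 40.6 and 140.5 and fell by 3.31 (SE 0.44). In both genes every young obese library was above every aged one, and young obese 4 was the highest. With the mean log2 level of 6 tendon markers as a covariate, 12 genes were called in place of 1206, and 1295 had an unadjusted p under 0.05 in limma. That score was 7.67 to 9.13 in young obese and 5.43 to 7.13 in aged obese libraries, without overlap. The score and age are thus largely confounded here, which widens the SE, and the drop in calls cannot tell them apart. The 6 markers (Tnmd, Scx, Mkx, Cilp2, Chad and Kera) were not tested in that fit. None of the 12 was in the collagen, proteoglycan or collagen enzyme lists, and 28 of the 30 proteoglycan genes were tested there. The median of the fibrillar collagens was -1.43 in place of -1.89. Col1a1 was then at -2.04 (adjusted p = 0.45) and Fmod at -0.072 (adjusted p = 0.958). The summed level of 11 fibrillar collagens had a median of 9976 normalized reads in young lean and 50370 in young obese libraries. It was 10980 in aged lean and 5848 in aged obese libraries. Tendon carried with the young obese muscle and a matrix level that differed within the muscle cannot be told apart.

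Fibro-adipogenic progenitor markers fell in 5 of 16 genes (median -0.45), with a summed level of 36890 to 51830 in young and 28930 to 36250 in aged obese libraries. Pdgfra, the receptor that defines these cells, fell by 0.54 (SE 0.15, adjusted p = 0.0323). Dpt, dermatopontin of fibroblasts, was at 875, 615, 1229.7, 959 and 1032 against 466, 482, 452, 462 and 643, so that aged obese 5 overlapped young obese 2, and fell by 0.89 (SE 0.17, adjusted p = 0.00302). The progenitor count was 10 without young obese 2 and 3 without young obese 3 or 4 or aged obese 2 or 4.

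No macrophage marker of 17 was called by limma (median -0.34, 3 at an unadjusted p under 0.05), and their summed level was 2523 to 10150 in young and 2526 to 4423 in aged obese libraries, with young obese 3 the highest. No marker passed among 8 red blood cell, 7 neutrophil or 3 lymphocyte genes (0, 1 and 1 at an unadjusted p under 0.05). Of 16 endothelial markers Flt1, a receptor for vascular growth factor, fell by 0.40. The endothelial falls numbered 6 without young obese 2, 4 without aged obese 5, 3 without young lean 1, 2 without aged lean 5 or aged obese 3, and 7 with library weights. Of 14 Schwann cell markers Pmp22, a myelin protein, fell by 0.68, and of 11 satellite cell markers Chodl and Sdc4 fell by 1.02 and 0.76. Adipocyte markers other than Car3, which muscle fibres also express, summed to 4589 to 10410 in young and 4370 to 8836 in aged obese libraries. What these cell markers contribute to the matrix falls was not tested.

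**Figure D2:**
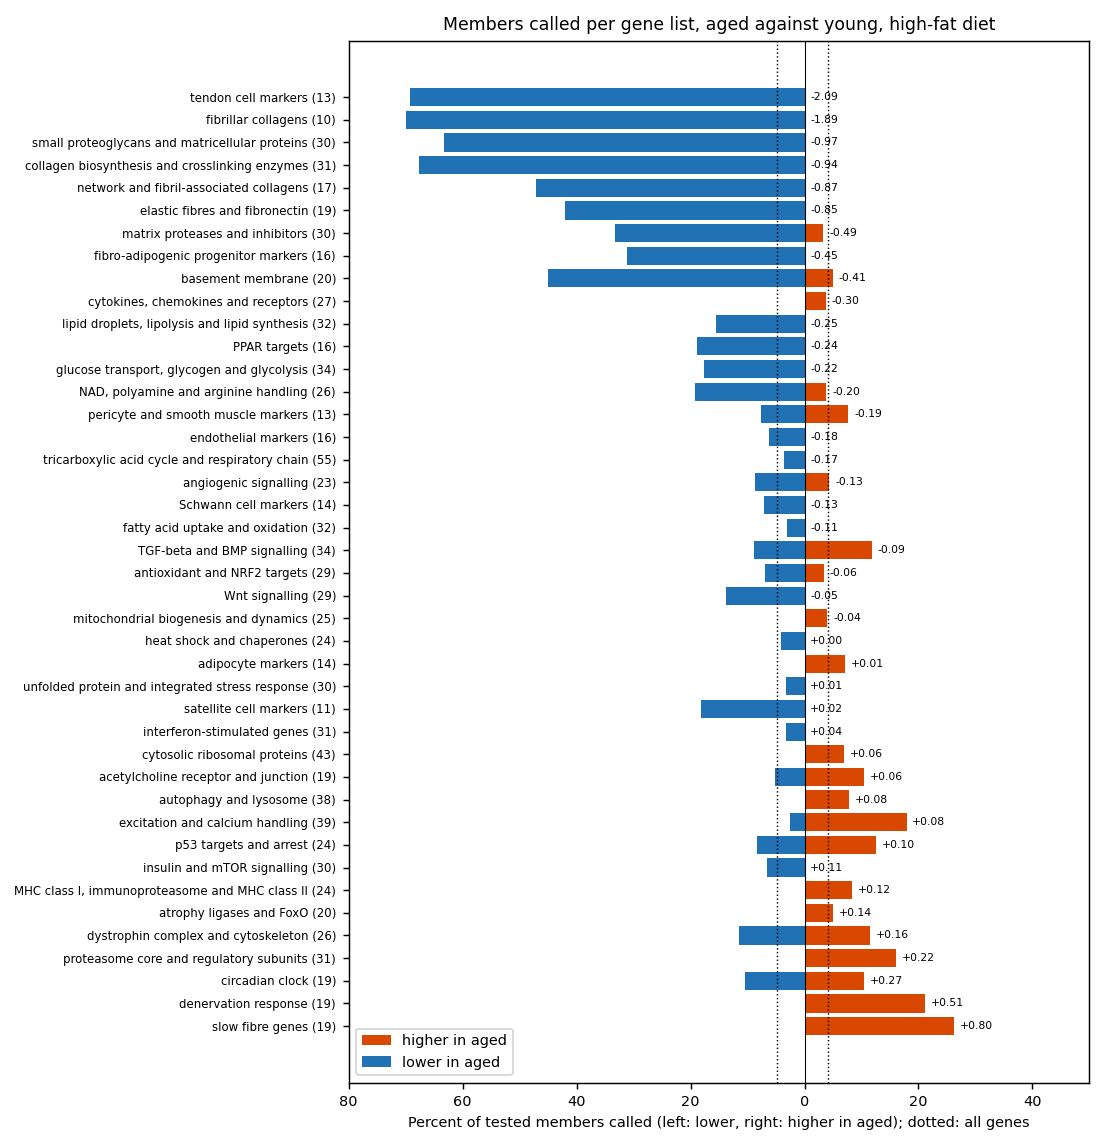
Bars give the percent of each list's tested members (number in brackets) that were called lower (left) or higher (right) in aged obese than in young obese muscle, beside the list's median log2 change, for lists with at least 1 called member. The dotted lines mark the 4.86% lower and 4.16% higher among all genes, and the matrix and tendon lists reach farthest to the left while slow fibre and denervation genes reach farthest to the right.

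The largest rises were in genes outside the matrix. Krt18, a keratin of simple epithelia that muscle also makes, was at 4.27, 5.46, 2.97, 14.4 and 9.14 normalized reads in young obese and 207, 265, 419.9, 70.6 and 24.4 in aged obese libraries. The groups did not overlap, but the aged libraries spread widely and aged obese 5 was the lowest of them. Krt18 rose by 4.19 (SE 0.67, adjusted p = 0.00113). Kcnab1, a potassium channel subunit, was at 78.9, 83.1, 63.4, 97.0 and 112 against 391, 449, 312, 365 and 196 and rose by 1.94 (SE 0.28, adjusted p = 0.000562).

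Tmem132b, a transmembrane protein, was at 98.1, 76.5, 85.2, 78.4 and 73.1 in young and 192, 254, 218, 259 and 239 in aged obese libraries, with narrow groups that lay well apart. It rose by 1.49 (SE 0.16, adjusted p = 0.000113). Rhpn2, a member of the rhophilin family, was at 45.9, 43.2, 22.8, 59.9 and 70.1 against 193, 187, 142, 157 and 167 and rose by 1.87 (SE 0.24, adjusted p = 0.0002). These genes were both among the 12 called with the tendon covariate (adjusted p = 0.0254 and 0.0472). Mss51, a mitochondrial protein of fast fibres whose loss in mice raises fuel use, was at 893, 2653, 1326, 1893 and 1909 against 4266, 8308, 5646, 7618 and 6838. Every aged library was above every young one, and the rise was 1.97 (SE 0.43, adjusted p = 0.00774).

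**Figure D3:**
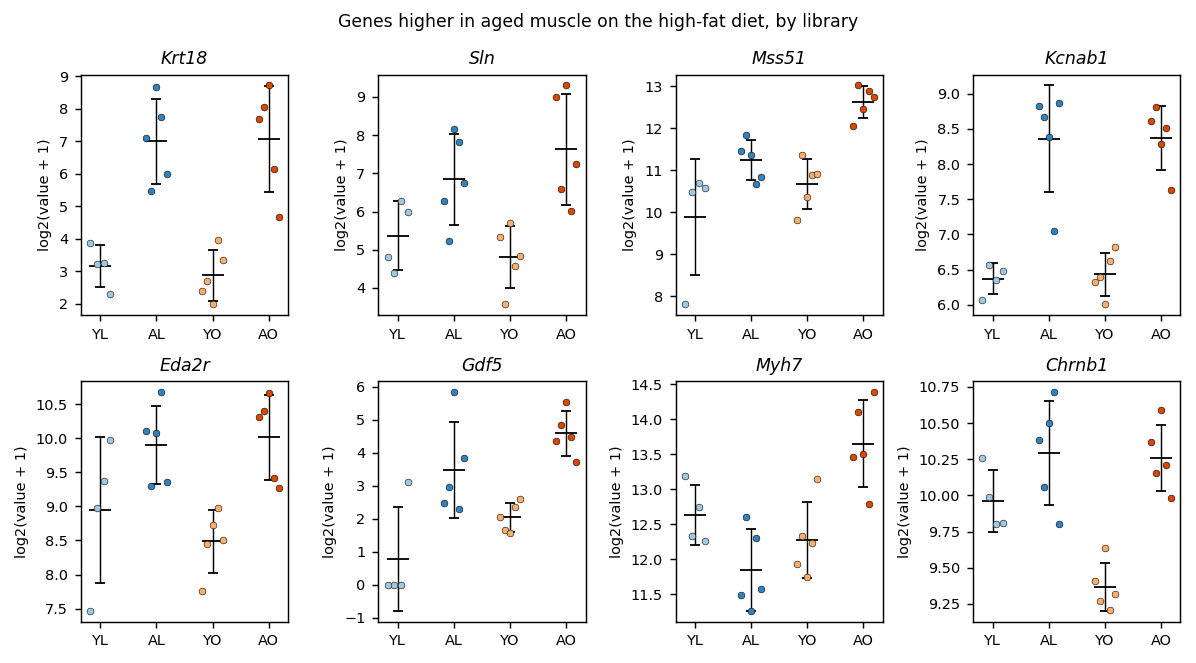
Each point is 1 library's log2(value + 1) of a gene called higher in aged obese (AO) than in young obese (YO) muscle, beside young lean (YL) and aged lean (AL), with group means as lines and SD as bars. Krt18, Kcnab1 and Gdf5 had higher group means in aged than in young muscle on both diets, while Myh7 had its lowest group mean in aged lean muscle.

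Of 19 denervation response genes 4 rose and none fell (median 0.51). Gdf5, a BMP ligand that is induced when muscle loses its nerve, was at 3.20, 2.19, 1.98, 4.13 and 5.08 in young and 19.5, 27.7, 46.1, 21.4 and 12.2 in aged obese libraries. The groups were apart at low levels, and the rise was 2.54 (SE 0.66, adjusted p = 0.0218), lost without aged obese 2 or 3. Gadd45a, a stress gene that denervation also induces, was at 325, 309, 363, 266 and 250.6 against 929, 786, 1685, 526 and 322. Aged obese 5 lay in the young range, and the rise of 1.28 (SE 0.37, adjusted p = 0.0344) was lost without young obese 1, 4 or 5 or aged obese 1, 2 or 3. The potassium channel Kcnn3 rose by 0.80 and the AMP deaminase Ampd3 by 0.77. The list's count was 1 without aged obese 2 and 2 without aged obese 3 or young obese 1 or 5. Myog, Hdac4 and Trim63 of this list, a myogenic factor, a deacetylase and a muscle ubiquitin ligase, did not pass (-0.066, 0.503 and -0.0047).

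At the synapse, Chrnb1, the beta subunit of the acetylcholine receptor, was at 678, 615, 795, 591 and 638 in young and 1322, 1137, 1538, 1184 and 1009 in aged obese libraries, without overlap, and rose by 0.89 (SE 0.15, adjusted p = 0.0014). The agrin receptor Lrp4 rose by 0.39 (adjusted p = 0.0475), and these were the 2 rises, with 1 fall, among 19 junction genes. Lrp4 was called in 8 of 19 runs that left out 1 library. Among 24 p53 target and arrest genes 3 rose and 2 fell, and without aged obese 2 or 3 the counts were 1 and 0. Eda2r, a p53-induced receptor of the TNF family, was at 215, 349.7, 424, 505 and 364 against 1271, 1346, 1622, 684 and 619, with every aged library above the young range. It rose by 1.53 (SE 0.39, adjusted p = 0.0185), a call lost without young obese 1 or aged obese 2 or 3. The pro-apoptotic Bbc3 rose by 1.19, Gadd45g fell by 1.46 and the cycle inhibitor Cdkn1b fell by 0.35.

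Of 19 slow fibre genes 5 rose and none fell. The other 14 did not pass, all 19 had positive values, and the median was 0.80. Myh7, the slow myosin heavy chain, was at 3927, 5175, 3428, 4799 and 9046 in young and 11238, 17639, 11615, 7109.7 and 21402 in aged obese libraries. Young obese 5 was above aged obese 4, and the rise was 1.37 (SE 0.31, adjusted p = 0.0102). Tnni1, slow troponin I, was at 537, 738, 712, 675 and 1342 against 1598, 1850.5, 1532, 1042 and 3504, again with young obese 5 above aged obese 4. Tnni1 rose by 1.20 (SE 0.32, adjusted p = 0.026), a call lost without young obese 1, 3 or 4 or aged obese 2 or 5. Mhrt, a noncoding RNA transcribed antisense to Myh7, rose by 1.39, but since strand is not stated its reads and those of Myh7 cannot be told apart.

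Sln, sarcolipin, which slows calcium uptake into the reticulum, was at 39.5, 10.9, 50.5, 22.7 and 27.4 in young and 512, 95.9, 630.3, 64.1 and 149.6 in aged obese libraries. The groups did not overlap, and aged obese 1 and 3 were far above the other aged libraries. It rose by 2.83 (SE 0.64, adjusted p = 0.00974). Casq2, the calcium store protein of slow fibres, rose by 0.80 and the slow light chain Myl6b by 0.56. The number of slow fibre genes called ran from 2, without young obese 4 or aged obese 5, to 9 without young lean 1. It was 3 without young obese 1 or 3 or aged obese 1 or 2, and 8 without aged lean 1 or aged obese 4. With the tendon score as a covariate none of the 19 was called, and their median was 1.42. None of 17 fast fibre genes passed in limma (median 0.01), nor did any of 14 developmental myosin and regeneration genes (4 and 2 at an unadjusted p under 0.05). Whether slow fibres were more numerous, or slow muscle was carried with the aged samples, cannot be told apart from RNA levels.

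Channel and calcium genes made 7 rises and 1 fall among 39 (median 0.08). Kcnc4, a fast potassium channel, was at 1014, 1366, 998, 1007 and 1142 in young and 2051, 2192, 2395, 1844 and 1773 in aged obese libraries. The groups lay apart, with a rise of 0.89 (SE 0.11, adjusted p = 0.000197). Kcnc4 means were 1860 in young lean, 1591 in aged lean, 1106 in young obese and 2051 in aged obese libraries. Cacng1, a subunit of the calcium channel that triggers contraction, rose by 0.92, and Camk2b, a calcium-dependent kinase, rose by 0.85. Scn3b, a sodium channel subunit, was at 30.9, 36.1, 28.7, 20.6 and 40.6 against 50.4, 43.5, 62.3, 66.3 and 66.2 and rose by 0.87 (SE 0.21, adjusted p = 0.0139). Its aged obese mean of 57.7 was below the means of young lean (88.3) and aged lean (68.3) libraries, and its young obese mean was the lowest (31.4). Car3, a carbonic anhydrase of slow fibres and fat cells, was at 29267, 44419, 29976, 29805 and 37977 in young and 88027, 64881, 76814, 65915 and 88281 in aged obese libraries and rose by 1.17 (SE 0.17, adjusted p = 0.000574). All aged libraries were above all young ones, while the adipocyte markers other than Car3 overlapped.

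Of 26 genes of polyamine, NAD and arginine handling 5 fell and 1 rose (median -0.20). Smox, spermine oxidase, was at 13123, 9143, 13160.1, 13715 and 14799 in young and 3255, 3802, 3129.9, 4562 and 2707 in aged obese libraries. The lowest young library was at about 2-fold the highest aged one, and Smox fell by 1.88 (SE 0.26, adjusted p = 0.000494). Amd1, which makes the aminopropyl donor for spermidine and spermine, was at 26963, 39426, 35525, 36282 and 38878 against 14074, 18329, 13710.0, 17946 and 11503 and fell by 1.24 (SE 0.19, adjusted p = 0.00102). Its near-identical copy Amd2 fell by 1.18, and reads of the pair may have been split between them. Nmrk2, the muscle nicotinamide riboside kinase, was at 4761, 1753, 2943, 5814 and 5526 against 1317, 1036, 1290.4, 1319 and 2009. Aged obese 5 was above young obese 2, and Nmrk2 fell by 1.48 (SE 0.34, adjusted p = 0.0113). Nampt, the main NAD salvage enzyme, fell by 0.21, and Oaz2, an inhibitor of polyamine synthesis, rose by 0.26.

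Of 16 PPAR targets, genes that fatty acids switch on, 3 fell and none rose (median -0.24). Ucp3, a mitochondrial carrier of fatty-acid-burning muscle, was at 5424, 3551, 6553, 3870.4 and 3207 in young and 1830.4, 1775, 1735, 1674 and 2130.2 in aged obese libraries, without overlap. It fell by 1.26 (SE 0.28, adjusted p = 0.00848). Pdk4, which holds back glucose oxidation, was at 29723, 19926, 21664, 15369 and 14706 against 10584, 11223, 10032, 6883 and 12928 and fell by 0.95 (SE 0.26, adjusted p = 0.0286). That call was lost without young obese 1 or 3 or aged obese 1, 3 or 4. Cpt1a, a gate for fatty acids into mitochondria, fell by 0.62 and was the only call among 32 genes of fatty acid uptake and oxidation (median -0.11). Without young obese 2 the PPAR targets made 5 falls.

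Of 32 lipid droplet and lipid synthesis genes 5 fell and none rose (median -0.25), with the elongase Elovl6 at -1.36 and the phosphatidate phosphatase Lpin1 at -0.44. That count was 3 without young obese 1 or 3 or aged obese 2. Of 34 glucose, glycogen and glycolysis genes 6 fell and none rose (median -0.22). The glycogen-targeting subunit Ppp1r3c fell by 1.06, and the glycolytic genes Pgk1, Ldha and Pkm fell by 0.60, 0.38 and 0.30. The count was 2 without young obese 4 or 5 or aged obese 3, and 3 without young obese 3 or aged obese 2 or 5. Of 55 genes of the citric acid cycle and respiratory chain 2 fell, Ndufs4 by 0.38 and Cox7a1 by 0.42, and 50 had negative values (median -0.17). These falls numbered 9 without young obese 3, 7 without young lean 1, 4 without aged obese 5 and 22 with library weights, and 1 without young lean 3, young obese 1, 4 or 5, aged lean 2 or 4, or any 1 of aged obese 1 to 4. Igf1, the growth factor that muscle and its macrophages make, was at 662, 399, 909, 703 and 707 in young and 422, 289, 512, 280.1 and 319.6 in aged obese libraries, with overlap. Its change of -0.88 (SE 0.24, adjusted p = 0.0247) was lost without young obese 3, 4 or 5 or aged obese 2 or 4.

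**Figure D4:**
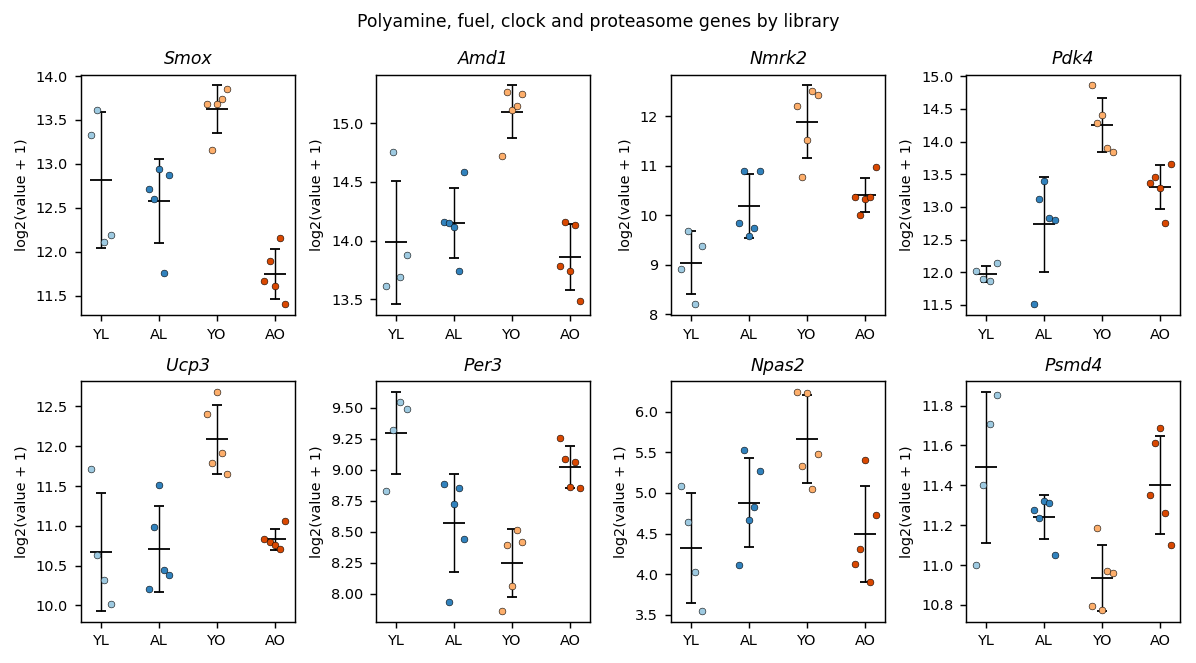
Each point is 1 library's log2(value + 1) of polyamine, fuel, clock and proteasome genes in young lean (YL), aged lean (AL), young obese (YO) and aged obese (AO) muscle, with group means as lines and SD as bars. Smox, Amd1, Pdk4 and Ucp3 have their highest group mean in young obese muscle, where Per3 has its lowest.

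Among 19 clock genes 2 rose and 2 fell (median 0.27). The rises numbered 6 without young lean 1 and 1 without young obese 1 or 3 or aged obese 2 or 4, and the falls 1 without young obese 1, 3 or 5 or aged obese 1, 2 or 4. Per3, a repressor arm gene, was at 231, 336, 266, 364 and 340.2 normalized reads in young obese and 610.1, 541, 462, 532 and 461 in aged obese libraries. Every aged library was above every young one, and the rise was 0.77 (SE 0.17, adjusted p = 0.00998). Nfil3, a repressor that binds the D-box, was at 1459, 591, 1041, 511 and 485 against 291, 299.7, 256, 371 and 305 and fell by 1.29 (SE 0.25, adjusted p = 0.00379). Npas2, an activator related to Clock, was at 74.7, 39.3, 74.3, 32.0 and 43.7 against 16.5, 18.8, 41.5, 13.9 and 25.4.

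The Npas2 groups overlapped through aged obese 3, and its change of -1.17 (SE 0.35, adjusted p = 0.0404) was lost without young obese 1, 3 or 5 or aged obese 1, 2 or 4. Cry2, another repressor, rose by 0.74. The promoter of Per3 is shown because it holds the letters that Nfil3 and its activating relatives Dbp, Tef and Hlf recognize. The window spans chr4:151044616-151044915 (RefSeq, GRCm38.p6, - strand), and capitals mark the D-box letters TTATGTAA and the letters CCAAT or ATTGG.
Per3: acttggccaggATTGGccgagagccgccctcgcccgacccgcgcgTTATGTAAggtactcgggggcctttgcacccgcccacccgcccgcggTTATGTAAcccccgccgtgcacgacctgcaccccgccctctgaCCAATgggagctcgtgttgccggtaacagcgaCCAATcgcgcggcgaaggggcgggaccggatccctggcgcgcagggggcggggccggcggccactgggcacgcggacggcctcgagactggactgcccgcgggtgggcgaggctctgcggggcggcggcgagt
It holds 2 D-box matches, on either strand, where 0.938% of 32851 windows hold at least 1, and 3 CCAAT matches. Of 16 clock genes with a window Per3 was the only one with the D-box letters, which were searched for after this sequence had been read. A clock score (activators Arntl, Clock and Npas2 less the output and repressor genes Ciart, Dbp, Hlf, Nr1d2, Per3 and Tef, as mean log2 levels) was -2.12 to -0.48 in young and -2.95 to -1.74 in aged obese libraries. With it as a covariate 306 genes were called, Col1a1 (adjusted p = 0.0136) and Kcnab1 (0.0118) among them. Time of tissue collection is not given in the sources used here, and its part was not tested.

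Of 31 proteasome subunits 5 rose, none fell and 26 did not pass, with positive values in 30 of the 31 and a median of 0.22. Psmd4, a ubiquitin receptor of the regulatory cap, was at 1776, 2329, 1749, 2004 and 1989 in young and 2614, 3127, 3296, 2457 and 2191 in aged obese libraries, with overlap. It rose by 0.47 (SE 0.14, adjusted p = 0.0371), and the ATPases Psmc3 and Psmc6 rose by 0.35 and 0.31. Psmd4 means were 2947 in young lean, 2423 in aged lean, 1970 in young obese and 2737 in aged obese libraries. The number called was 1 without young obese 3 or aged obese 3, 2 without young obese 1, 4 or 5 or aged obese 1 or 2, 8 without young lean 4 and 14 without young lean 1. It was 0 with the clock score (median 0.156) and 0 with the tendon score (median 0.204). Of 38 autophagy and lysosome genes 3 rose, the mitophagy kinase Pink1 (0.45), the cargo receptor Nbr1 (0.36) and Atg13 (0.33). Among 20 atrophy ligase and FoxO genes 1 rose, Fbxo21 (0.35), and Trim63 and Fbxo32, the ligases most used as atrophy markers, did not pass (-0.0047 and 0.19). The atrophy list had no rise without young obese 1, 3 or 4 or aged obese 1 or 2.

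Immune genes gave few calls. Ccl5, a chemokine of lymphocytes, was at 1.07, 14.2, 1.98, 2.06 and 2.03 in young and 15.4, 10.9, 13.5, 39.6 and 15.3 in aged obese libraries, at levels near the filter and with young obese 2 inside the aged range. It rose by 2.21 (SE 0.66, adjusted p = 0.0406) and was the only call among 27 cytokine genes, but was called in 10 of 19 runs that left out 1 library. H2-Q7, a nonclassical class I antigen, was at 29.5, 30.5, 34.0, 23.3 and 39.9 against 136, 51.6, 75.6, 81.2 and 67.6 and rose by 1.31 (SE 0.40, adjusted p = 0.0479), called in 6 of 19 such runs. It and the near-identical H2-Q6 (1.31) were the 2 rises among 24 antigen presentation genes, and reads of the pair may have been split between them. No complement gene of 18 passed in limma (median -0.34, 5 at an unadjusted p under 0.05).

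The age effect on the lean diet, aged lean against young lean, shares no library with the high-fat comparison. Both took their spread per gene from the model of all 19 libraries, and a fit of the lean groups only called 130 genes. In the model of all 19 libraries 545 genes changed on the lean diet (4.08%), 279 upward (2.09%) and 266 downward (1.99%). Of these, 114 also changed in the same direction on the high-fat diet, 69 upward and 45 downward, and 12 changed in opposite directions. Genes called on both diets, in either direction, made 10.4% of the high-fat calls and 23.1% of the lean calls. Krt18 rose by 3.83 on the lean diet (adjusted p = 0.00564), Kcnab1 by 1.99 (0.00154), Gdf5 by 2.70 (0.0342) and the detoxifying dehydrogenase Aldh1a1 by 0.82 against 0.81 on the high-fat diet. The lean groups of Gdf5 overlapped at very low levels, at 0, 0, 0 and 7.78 in young and 4.53, 6.86, 56.1, 3.91 and 13.5 in aged lean libraries. Per3 fell by 0.73 on the lean diet (adjusted p = 0.0305), the opposite of its rise on the high-fat diet. No gene of the fibrillar collagen, tendon or slow fibre lists was called by limma on the lean diet, where 2, 1 and 2 had an unadjusted p under 0.05 and the medians were 0.13, -0.22 and -0.12.

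Whether the age effect differed between the diets was tested as an interaction, and 398 genes passed (2.98%), 172 with a higher (1.29%) and 226 with a lower (1.69%) change on the high-fat diet. Col1a1 was at 0.024 with age on the lean diet, and the difference between diets was -3.48 (SE 0.76, adjusted p = 0.0227). Kera differed by -2.91 (adjusted p = 0.024), Loxl2 by -2.14 (0.0119) and Dcn by -0.90 (0.0113). Myh7, at -0.78 on the lean diet, differed by 2.15 (SE 0.45, adjusted p = 0.02), while Tnni1, at -0.49, differed by 1.69 and did not pass (adjusted p = 0.056). In the fibrillar collagen list 4 of 10 genes differed downward, and in the proteasome list 5 of 31 differed upward.

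Per3, called in opposite directions on the 2 diets, differed by 1.502 (adjusted p = 0.00859). For Nmrk2, Adgre1, Fzd4, Slc7a2, Sh3rf2 and Cbr2 the estimates had opposite signs and the difference passed, but the estimate on 1 diet or on both did not. Nmrk2, which fell on the high-fat diet, was at 1.14 on the lean diet without passing (adjusted p = 0.0756) and differed by -2.62 (adjusted p = 0.0131). Adgre1, the macrophage marker F4/80, was at 199, 108, 398, 127 and 179 in young and 136, 58.4, 96.6, 122 and 78.4 in aged obese libraries, which overlapped (-0.94, adjusted p = 0.146). On the lean diet it was at 1.44 and did not pass either (adjusted p = 0.0623), while the difference of -2.38 passed (adjusted p = 0.0396). Fzd4, a Wnt and norrin receptor of vessels, was at 728, 570.5, 437, 439 and 512 against 705, 653, 694, 560.2 and 551 on the high-fat diet, which did not pass (0.25), fell by 0.92 on the lean diet and differed by 1.18 (adjusted p = 0.00625). Slc7a2, an arginine transporter, fell by 1.12 on the lean diet, was at 0.29 on the high-fat diet, which did not pass (adjusted p = 0.399), and differed by 1.41 (adjusted p = 0.0227).

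Sh3rf2, a ring-finger scaffold protein, was at 377, 537, 234, 327 and 368 in young and 782, 708, 770.3, 950.5 and 858 in aged obese libraries, without overlap. It rose by 1.18 (SE 0.20), was at -0.22 on the lean diet without passing (adjusted p = 0.592), and differed by 1.41 (adjusted p = 0.02). Sh3rf2 means were 849 in young lean, 689 in aged lean, 368 in young obese and 814 in aged obese libraries. Cbr2, a carbonyl reductase that resident macrophages and fat express, was at 721, 656, 1167, 1089.9 and 1055 against 504, 411, 535, 395 and 307. It fell by 1.11 (SE 0.16), was at 0.44 on the lean diet without passing (adjusted p = 0.13), and differed by -1.55 (adjusted p = 0.00475). Tmem132b rose on both diets, by 2.80 on the lean diet, with a difference of -1.31 (adjusted p = 0.0113). For Krt18 and Kcnab1 the difference between diets was 0.35 (SE 0.98) and -0.054 (SE 0.41), and neither passed, which does not show that the diets act alike. The interaction count was 1724 without young lean 1, 1312 without young obese 2 and 112 without young lean 2.

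**Figure D5:**
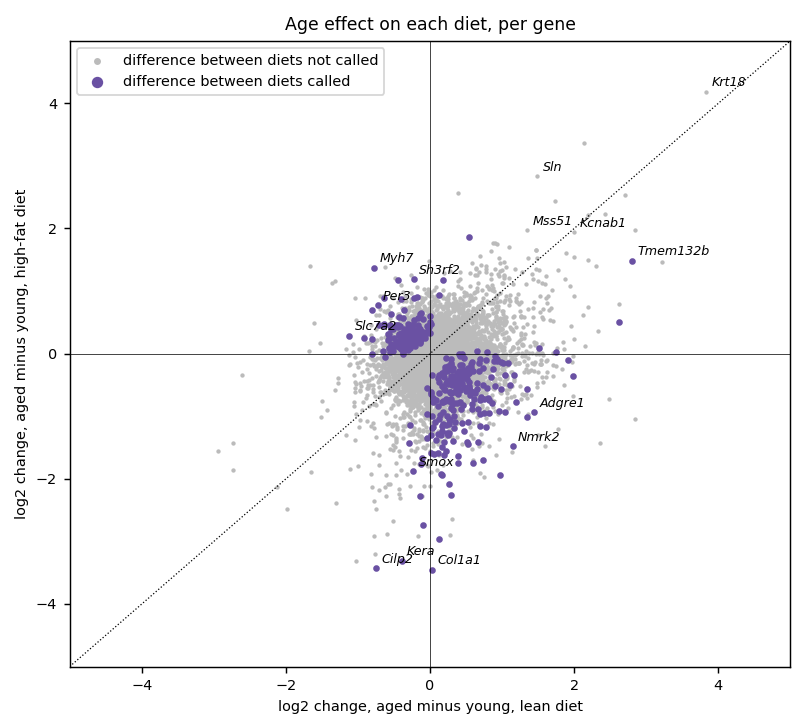
Each point is 1 of 13367 genes, with its log2 change with age on the lean diet (horizontal axis) and on the high-fat diet (vertical axis), and purple marks the 398 genes whose change differed between the diets. Krt18 and Kcnab1 lie near the dotted line of equal change, while Col1a1, Cilp2 and Kera lie far below it.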

How the data were processed

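The deposited table gives 1 signal value for each gene in each library, which the authors had already normalized. The submitters' processing notes list the aligner STAR 2.78a, DESeq2, Partek and the genome build mm39 without saying what each was used for. Annotation, read counting, strand and filters are not given in those notes. Per the labels, samples whose RNA integrity number was under 7 were dropped. The value of 1 read was estimated from the steps between low values. Only 85.2 to 86.3% of low values (200 reads or fewer) came out whole at a tolerance of 0.02 reads, too few for a count test. Estimated depth was 15.1 to 17.9 M reads per library, and no pair of libraries was a duplicate (highest r 0.9883). Replicate numbers follow the submitters' library order and pair nothing.

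The test was limma 3.58.1 (R 4.3.3, with a trend in the variance) on log2(value + 1), and 1340 genes whose mean was below 10 were not tested. The 19 libraries entered 1 model with 4 group means, 15 residual and 4.37 prior degrees of freedom, and p-values were adjusted by Benjamini-Hochberg over 13367 genes. A pseudocount of 1 understates the change of low genes. The code was tested on simulated data. Promoters came from a RefSeq table of GRCm38.p6, another build than mm39, and were matched by symbol. Python 3.11.15 with pandas 2.3.3, numpy 2.4.6 and matplotlib 3.10.9 made the summaries and figures.

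The gene lists, the comparison and the scores were chosen with earlier results of these data known. Named genes are the 15 largest rises and 15 largest falls with a mean of at least 50 (predicted and pseudogene symbols left out), up to 5 members of each list with the lowest p, the first 3 members of each list, and the 8 largest differences between diets in each direction. Of the 369 genes this takes the text prints part. Alternatives covered the pseudocount, the filter, the scaling, library weights, the variance model, the groups in the fit, the tendon and clock scores and each library left out.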

Additional observations from a re-analysis of the deposited data

Results flagged for a closer look

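The age effect differed between the diets, by the limma interaction at an adjusted p under 0.05, for 29 genes. Only part of the genes named above was screened for this. Some of these genes were named for a large difference between diets or a large high-fat change. The 29 is thus not a share to compare with the 2.98% called among all genes. Of matrix genes, the high-fat effect minus the lean effect was -3.48 on the log2 scale for Col1a1, -3.08 for Col1a2, -2.08 for Col5a2, -1.55 for Sparc, -0.904 for Dcn, -2.14 for Loxl2, -1.501 for Mmp2, -0.921 for Timp2 and -1.03 for Col4a1. For the tendon genes Cilp2 and Kera it was -2.68 and -2.91. For the fibroblast genes Sfrp2 and Dpt it was -2.64 and -1.47.

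Among the other genes it was 1.33 for Rhpn2, -1.31 for Tmem132b, 2.15 for Myh7, 0.995 for Car3, 1.12 for Kcnc4 and 1.28 for Scn3b. The metabolic genes were at -1.64 (Smox), -1.40 (Amd1), -2.62 (Nmrk2), 1.41 (Slc7a2) and -1.71 (Pdk4). Per3 was at 1.502, Sh3rf2 at 1.41, Fzd4 at 1.18, Adgre1 at -2.38 and Cbr2 at -1.55. With the tendon score in the model limma gave 0 interaction calls and 1534 genes at an unadjusted p under 0.05. Cilp2 and Kera are part of that score and were not tested there.

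Single libraries stood apart from the other 4 of their group by Dixon's criterion on the log2 scale in 5 cases of 104 groups of 5 screened, where chance alone gives about 1 in 20. Dpt was at 643 in aged obese 5, Smox at 9143 in young obese 2 and Amd1 at 26963 in young obese 1. Ccl5 was at 14.2 in young obese 2 and at 39.6 in aged obese 4.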

How the results depend on the processing

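The high-fat count of 1206 genes was 2840 with library weights, 12 with the tendon score, and 306 with the clock score. With the pair young lean 1 and young obese 2 left out it was 2523, and with the pair young lean 3 and young obese 3 left out 786. Leaving out 1 library gave 723 to 1893. The interaction count of 398 was 2494, 0, 5, 2694 and 134 under the settings with weights, tendon score, clock score and those pairs left out in that order, and 210 with no trend in the variance. Leaving out 1 library gave 112 to 1724, over 1.5 times away in every run but those without aged lean 3, aged lean 4 or aged obese 5. At an unadjusted p under 0.05 limma gave 3055 interaction genes, and 1534 with the tendon score. The lean count of 545 was 1565 with library weights, 130 with the lean groups only, 206 with the clock score, 1489 and 355 with those pairs left out in turn, and 283 to 1271 when single libraries were left out. The cause was not tested. Quantile normalization gave 769 rises and 623 falls on the high-fat diet, and scaling to library totals 403 rises and 164 falls on the lean diet. Among 161 named genes called on the high-fat diet, 102 were called in each of the 19 runs that dropped a library, as were 25 of the 30 largest changes. The exceptions were Eda2r, Mhrt, C1qtnf3, Adam12 and Nr4a3. Among these 161, Comp, a tendon matrix protein, was the only one to turn its sign under any alternative run, to 0.28 with the tendon score, where it was not called. Signs of genes not called were not followed, and the median of the junction list turned from 0.0607 to -0.0872 with that score. With weights 71 of 369 named genes gained a call and 2 lost it, and pseudocounts of 0.5 or 5 changed none. Depth limits genes near the filter, such as Ccl5 and Gdf5.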
